A study of Mus musculus with 18 samples.

Results

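The genes that write, copy, read and oxidise DNA methylation were measured here as a set of 9: Dnmt1, Dnmt3a, Dnmt3b, Uhrf1, Uhrf2, Tet1, Tet2, Tet3 and Mbd2. They were chosen by name, from 18194 genes with a named probe set. No rule on measured values was used, but earlier results of these data were known. They had 23 of the 45101 probe sets of the array, and for each gene the set whose signal averaged highest over the 17 arrays was taken. The values are log2 signals, so a difference of 1 is a doubling. A gene was tested where at least 3 arrays reached 4.86, the median of all values on all arrays, which left 11897 genes and 8 of the 9 members; Tet1 did not pass.

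The cells were primary B-cell lymphoma cells from lymph nodes of Eµ-myc mice on a C57/Bl6 background, in which the Myc oncogene is driven by an immunoglobulin enhancer. All groups lacked Suv39h1, the methyltransferase that places the repressive H3K9me3 mark, and all carried 2 retroviral genes: Suv39h1-ERT2, a fusion protein switched on by 4-hydroxytamoxifen (4-OHT), and Bcl2, which blocks apoptosis. Cells of 3 lymphomas, numbered 4146, 4936 and 5043, were left untreated, or were given for 5 days the DNA-damaging drug Adriamycin alone (ADR) or together with 4-OHT (ADR+OHT). They were then kept for 14 days without drugs: ADR alone gave the ADR outgrowth, and the ADR+OHT outgrowth was split by cell sorting into fractions of big and of small morphology. The design thus asks how therapy differs with and without active Suv39h1, during treatment and after it. Each group held 1 array of each of the 3 lymphomas, except that the ADR outgrowth had 2, because the array of lymphoma 5043 carries no values and is labelled as failing quality control. No group was given 4-OHT without ADR, and no DNA methylation was measured: all values are of RNA.

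DNA methylation in mammals sits mainly on cytosines followed by guanine. After replication the new strand is unmethylated; Uhrf1 binds the half-methylated site and brings in Dnmt1, which copies the mark, so that both work during S phase. Dnmt3a and Dnmt3b methylate sites afresh, Tet1, Tet2 and Tet3 oxidise methylcytosine and so start its removal, Uhrf2 is the relative of Uhrf1 that binds the oxidised form, and Mbd2 reads methylated DNA as part of the NuRD repressor complex. Loss of Dnmt3a or Tet2 is known to contribute to blood cancers.

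Promoter sequence is shown first for Dnmt1 and Uhrf1, the members whose levels followed those of replication genes. RefSeq promoter windows on GRCm38.p6, 300 bases each from 250 before to 50 after a transcript start, were found for 8 of the 9 members (13 windows); Mbd2 had no match. They were searched on both strands for the E2F-type motifs TTTGGCGC, TTTCCCGC, TTTCGCGC and TTTGCCGC, after the factors that drive S-phase genes. Among the members only Dnmt1 and Uhrf1 held one, in 1 window each, against 744 of all 32851 windows (2.26%). TTTCGCGC, the motif that both genes held, was in 106 of all windows (0.323%). Each motif contains CG, and both matching windows held 33 CG pairs, against a median of 7 over all windows. Shares over windows equally rich in such pairs were not computed. The matches are given 5′ to 3′ on the strand of the gene with the motif in capitals; the first runs on the opposite strand and so reads as the reverse complement.
Dnmt1, chr9:20952824-20952853, minus strand, 219 bases before the start: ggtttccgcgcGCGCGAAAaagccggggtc
Dnmt1, chr9:20952574-20952603, minus strand, 33 bases after the start: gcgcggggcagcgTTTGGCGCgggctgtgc
Uhrf1, chr17:56304117-56304146, plus strand, 185 bases before the start: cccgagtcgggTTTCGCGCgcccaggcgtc

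The Dnmt1 matches do not overlap each other and belong to the start at position 20952623; the gene has further starts at 20952979 and 20959888, whose windows held none. The Uhrf1 match belongs to the start at 56304313 and not to the one at 56303337. A match describes letters in a window, and binding was not measured. The richest member window in CpG pairs was that of Tet2, with 57, against a median of 7 over all windows; Tet1, the member with the lowest signals, had 17. The genes lie at 9:20907206-20959888 (Dnmt1), 12:3801559-3914443 (Dnmt3a), 2:153649411-153687730 (Dnmt3b), 17:56303337-56323486 (Uhrf1), 19:30030430-30093726 (Uhrf2), 10:62804570-62887469 (Tet1), 3:133463677-133545136 (Tet2), 6:83362373-83457208 (Tet3) and 18:70568225-70629134 (Mbd2) of GRCm38.p6.

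Several arrays stood apart before any comparison was made. The arrays ADR of lymphoma 4936 and small and big of lymphoma 5043 scored 58.47 to 66.81 on the leading principal component, against at most 5.94 on the other 14. Xist, which silences one X chromosome in female cells, lay 5.70 to 5.99 above the median of its lymphoma on these 3 and at −3.49 from it on ADR+OHT of lymphoma 4146. The main differences of the members are given with and without these arrays. The B-cell markers averaged 7.63 to 9.39 on every array. Macrophage markers averaged 4.95 to 5.64 in untreated cells, 6.37 to 9.43 after ADR, 6.71 to 7.79 after ADR+OHT, 5.99 to 7.06 in the ADR outgrowth, 6.23 to 7.15 in big and 4.95 to 5.83 in small cells, while C1qa, C1qb, C1qc, Mrc1 and Cd163 stayed under 4.86 everywhere. Fibroblast markers averaged 7.83 to 9.55 in big cells, 6.67 to 8.03 after ADR and 4.75 to 6.62 elsewhere, with Postn, Loxl1 and Pdgfrb under 4.86 on every array.

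No member passed the test in any of the 13 comparisons (limma with a block for lymphoma, Benjamini-Hochberg adjusted p under 0.05 over the 11897 genes). Among all genes, 350 (2.94%) passed between ADR+OHT and untreated, 600 (5.04%) between small and ADR+OHT, 478 (4.02%) between big and ADR+OHT, 112 (0.941%) between big and ADR outgrowth, and 49 (0.412%) between big and untreated. These counts themselves turned on single arrays: leaving out 1 of the 17 at a time gave 14 (ADR+OHT of 5043) to 547 (ADR+OHT of 4146) for the first and 10 (small of 4146) to 793 (untreated of 4936) for the second. For big minus ADR+OHT the counts were 0 (ADR+OHT of 4936 or 5043, or big of 4936) to 746 (untreated of 4936). For big minus ADR outgrowth they were 0 (big of 4146 or 4936) to 198 (untreated of 4936), and for big minus untreated 0 (untreated of 4146 or 4936) to 91 (ADR of 4936). Fits without an ADR outgrowth array leave 1 array in that group and are left out of these ranges. In the other 8 comparisons no gene passed, so the share was 0% for members and for all genes alike. Without adjustment, a p under 0.05 was reached by 2 members and 2287 genes for ADR+OHT minus untreated, 1 and 1348 for ADR minus untreated, 0 and 1490 for ADR+OHT minus ADR, 1 and 1243 for big minus small, 1 and 1598 for small minus ADR outgrowth, and 2 and 987 for small minus untreated. For small minus ADR+OHT these counts were 1 and 2783, for ADR outgrowth minus untreated 0 and 534, for ADR outgrowth minus ADR 0 and 462, and for the difference between the 4-OHT contrasts described at the end 0 and 1129. Big minus untreated, big minus ADR+OHT and big minus ADR outgrowth had 0 members at this level, with 1938, 2782 and 2511 of all genes.

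The size of the swings differed among members. After removal of lymphoma means, the SD of Tet2 over the 17 arrays was larger than that of 86.6% of tested genes, of Uhrf2 83.8%, of Uhrf1 83.5%, of Dnmt1 74.7%, of Dnmt3b 72.0% and of Dnmt3a 55.5%. Mbd2 and Tet3 varied less, exceeding 22.9% and 3.40% of genes. For each of the 9 genes, groups next to each other in the order of their means overlapped in single-array values, so no order of the 6 groups is resolved step by step. The members' values are plotted by group.

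**Figure D1:**
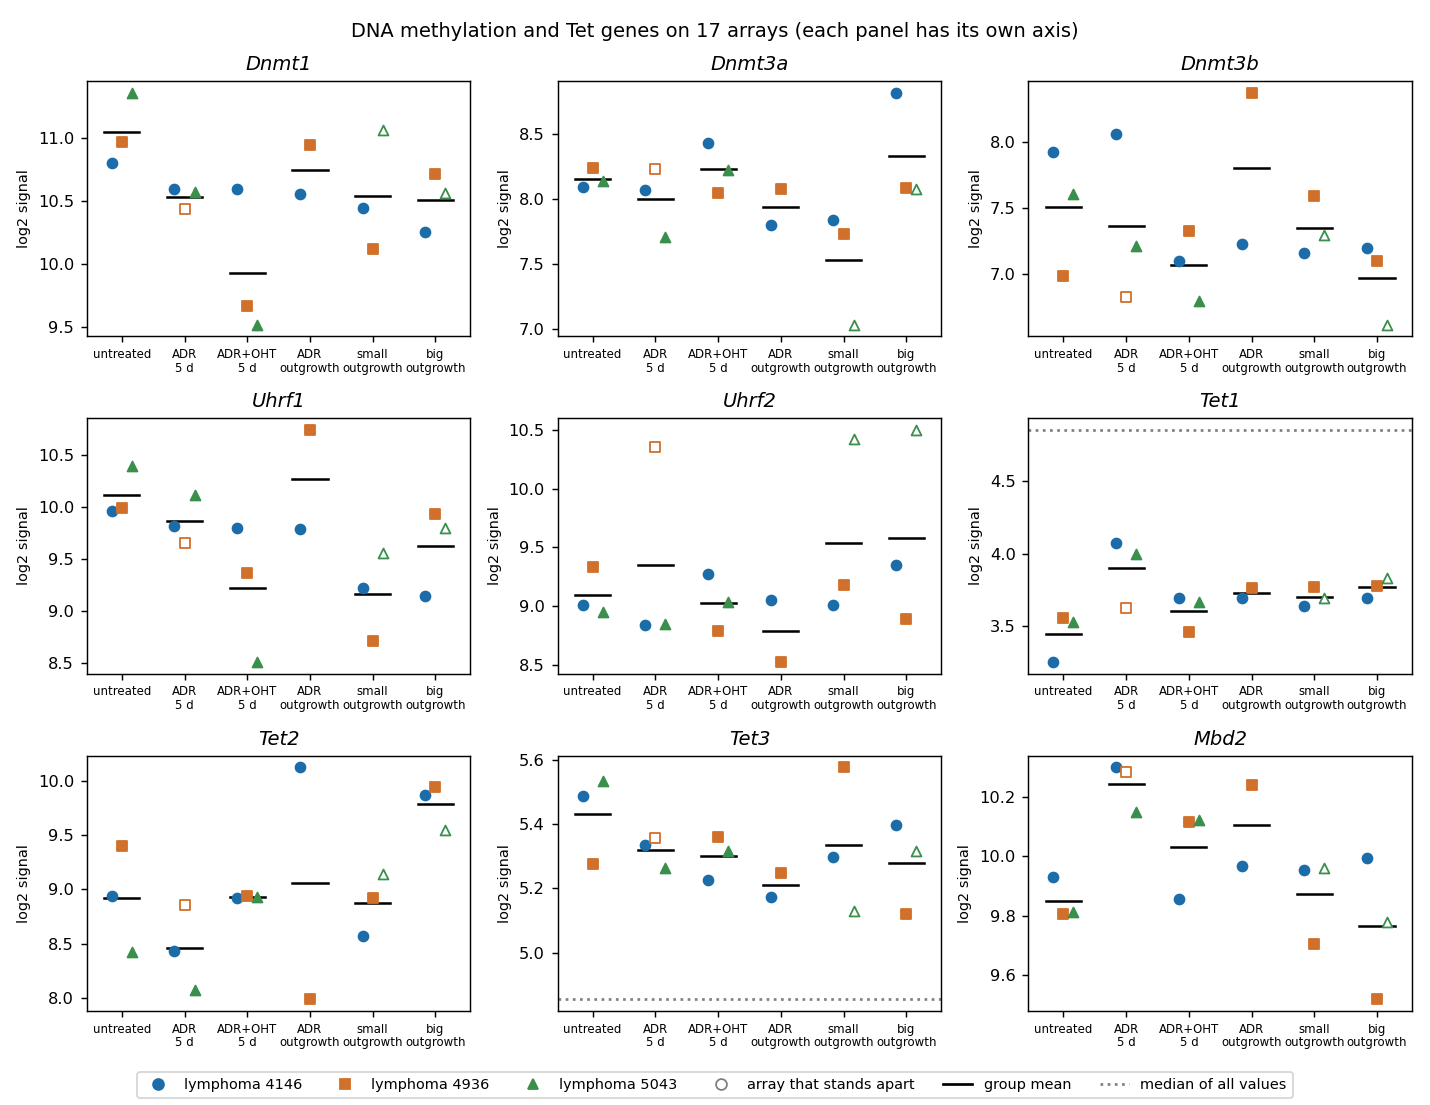
Log2 signal (vertical axis) of the 9 genes on each of the 17 arrays by group, with 1 symbol shape per lymphoma, bars for group means, and open symbols for the 3 arrays that stand apart (ADR of 4936, small and big of 5043). The ADR+OHT points of Dnmt1 and Uhrf1 lie under all untreated points, the big points of Tet2 lie above all small ones, and Tet1 lies under 4.86 (dotted line) throughout.

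Dnmt1, the maintenance methyltransferase, had its lowest levels after 5 days of ADR+OHT. Its log2 signal in lymphomas 4146, 4936 and 5043 was 10.80, 10.97 and 11.36 untreated, 10.60, 10.44 and 10.58 after ADR, and 10.60, 9.67 and 9.52 after ADR+OHT. Untreated cells were thus highest in each lymphoma, the ADR+OHT values of 4936 and 5043 were the lowest of all 17, and ADR+OHT did not overlap with untreated. The group means were 11.04 ± 0.29, 10.54 ± 0.09 and 9.93 ± 0.58 (SD, n = 3 each).

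The difference of Dnmt1 between ADR+OHT and untreated was −1.12 (SE 0.30, 95% confidence interval −1.78 to −0.46), with an adjusted p of 0.0709 in limma, which missed the threshold. It was −0.20, −1.30 and −1.84 in lymphomas 4146, 4936 and 5043, so lymphoma 4146 contributed little. Without its ADR+OHT array, the one whose Xist level was low, the difference was −1.53 with an adjusted p of 0.00741, and 547 of all genes (4.6%) passed. Leaving out the 3 arrays that stand apart gave −1.12 (adjusted p 0.0735), and leaving out lymphoma 5043 gave −0.75. The call therefore turned on single arrays, while the direction was the same in all 3 lymphomas. ADR alone gave a smaller difference from untreated, −0.51 (SE 0.30, adjusted p 0.528), again without overlap, and ADR+OHT minus ADR was −0.61 (adjusted p 0.428), with 0.00, −0.77 and −1.06 by lymphoma. The latter was −0.29 without the ADR+OHT array of 5043 and −1.08 without all 4 arrays named above. Whether fewer cells held Dnmt1 RNA or each cell held less cannot be told apart in bulk RNA.

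The 3 probe sets of Dnmt1 gave like values. The differences between ADR+OHT and untreated were −1.12, −1.15 and −1.01 (adjusted p 0.0792, 0.0690 and 0.0735 over 21220 probe sets), and the other sets followed the first over the 17 arrays with r = 0.97 and 0.99. In the outgrowths Dnmt1 stood between the extremes. It was 10.56 and 10.94 in the ADR outgrowth of 4146 and 4936, 10.25, 10.71 and 10.57 in big cells, and 10.44, 10.12 and 11.07 in small cells. All big values lay under all untreated ones, but the share of all genes that did so is not given here. Big minus untreated was −0.53 (adjusted p 0.397), with −0.55, −0.26 and −0.79 by lymphoma. The level in small cells was 0.62 above ADR+OHT (adjusted p 0.245) and in big cells 0.58 above it (adjusted p 0.267); without the ADR+OHT array of 4146 these were 1.03 and 0.9998, with adjusted p 0.0344 and 0.0474, and without the 3 arrays that stand apart they were 0.34 and 0.54 (adjusted p 0.643 and 0.462). Big and small cells differed by −0.03 (adjusted p 0.991).

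Uhrf1, which recruits Dnmt1 to replicating DNA, showed a similar course at 5 days. It measured 9.95, 9.99 and 10.39 in untreated cells of lymphomas 4146, 4936 and 5043, 9.82, 9.65 and 10.11 after ADR, and 9.80, 9.36 and 8.51 after ADR+OHT. All ADR+OHT values lay under all untreated values, though by little in lymphoma 4146, while ADR and untreated overlapped. The ADR+OHT minus untreated difference was −0.89 (SE 0.37, 95% confidence interval −1.69 to −0.08, adjusted p 0.213), with −0.16, −0.63 and −1.88 by lymphoma. The second Uhrf1 probe set gave −1.20 (SE 0.29, adjusted p 0.0552). Leaving out lymphoma 5043 reduced the difference to −0.39. Dnmt1 and Uhrf1 were the only members without overlap between ADR+OHT and untreated, 2 of 8 lower, against 15.8% of all genes lower and 15.2% higher.

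Among the outgrowth groups Uhrf1 had its lowest mean in small cells, 9.17, close to 9.22 after ADR+OHT. On its second probe set small cells gave 6.37, 5.77 and 6.47, and ADR+OHT gave 6.21, 6.12 and 5.81. The representative set was 9.79 and 10.74 in the ADR outgrowth of 4146 and 4936, and 9.22, 8.71 and 9.56 in small cells of the 3 lymphomas. Big cells gave 9.15, 9.93 and 9.79 and overlapped with small ones. They also lay under all untreated values, again without a share over all genes given here. Big minus untreated was −0.49 (SE 0.37, adjusted p 0.526), with −0.81, −0.06 and −0.60 by lymphoma. Small cells lay under all ADR-outgrowth and all untreated cells: small minus ADR outgrowth was −1.13 (SE 0.42, adjusted p 0.306; 17.2% of all genes were lower without overlap), and small minus untreated was −0.94 (SE 0.37, adjusted p 0.565), with −0.73, −1.27 and −0.83 by lymphoma. Of all genes, 9.2% were lower without overlap in the second. Without lymphoma 4936 the first of these was −0.44, and without the 3 arrays that stand apart they were −1.29 and −1.20. For Dnmt1, small minus untreated was −0.50 (adjusted p 0.680), lower in all 3 lymphomas, and −0.78 without those 3 arrays; the difference between the genes was not tested.

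**Figure D2:**
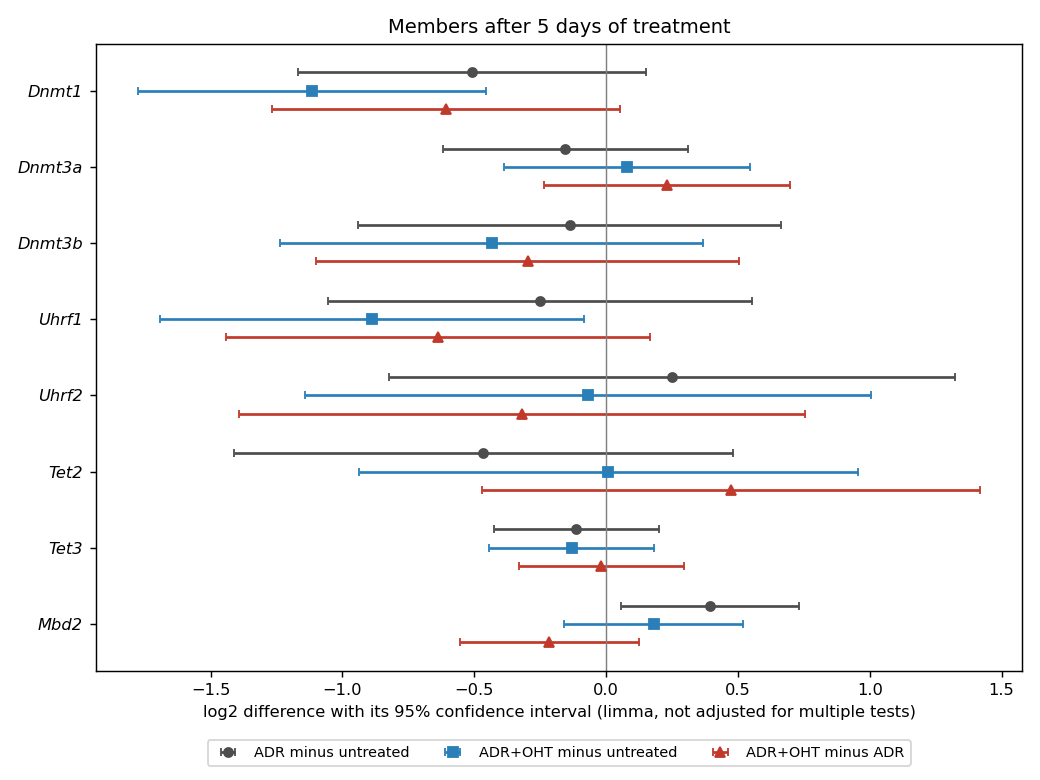
Log2 difference (horizontal axis) of the 8 tested members for ADR minus untreated, ADR+OHT minus untreated and ADR+OHT minus ADR, with 95% confidence intervals from limma. Dnmt1 and Uhrf1 lie farthest to the left for ADR+OHT minus untreated, at −1.12 and −0.89, and the intervals of most other members span 0.

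Both maintenance genes followed the replication and mitosis genes. A list of 28 tested proliferation genes (Mki67, Top2a, the Mcm helicase subunits and others) was compared as its mean per array, each lymphoma centred on its own mean. Over the 17 arrays, Dnmt1 correlated with this mean at r = 0.94 and Uhrf1 at r = 0.90, and over the 13 arrays left without the 4 doubtful ones at 0.97 and 0.93. Dnmt3b reached 0.48, while Dnmt3a (−0.19), Tet2 (−0.23), Tet3 (−0.13), Uhrf2 (−0.08) and Mbd2 (−0.07) did not follow it. These are descriptions over arrays that share lymphomas, with no test.

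All 28 proliferation genes had a lower mean after ADR+OHT than untreated, with a median difference of −1.10, against 0.00 over all genes. Of these 9 fell (adjusted p under 0.05; 2.05% of all genes fell), the strongest by adjusted p being the DNA polymerase subunit Pola1 (−1.65), the replication factor Gins1 (−1.76) and the thymidine kinase Tk1 (−1.85). Macrophage markers were higher in the same comparison for all 11 tested of 17 listed (median 1.64). Of these 1, Lyz2, rose, and none did without the untreated array of any 1 lymphoma or the ADR+OHT array of 4936 or 5043. The part of macrophage markers was not tested. The median of the proliferation list was −0.34, −1.13 and −1.89 in lymphomas 4146, 4936 and 5043, the same order as for Dnmt1 and Uhrf1. The difference of Dnmt1, −1.12, was thus near the median of the list. Without the ADR+OHT array of 4146, 19 of the 28 fell, without the untreated array of 4146 4 did, and without the untreated or the ADR+OHT array of 4936 or of 5043 none did.

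**Figure D3:**
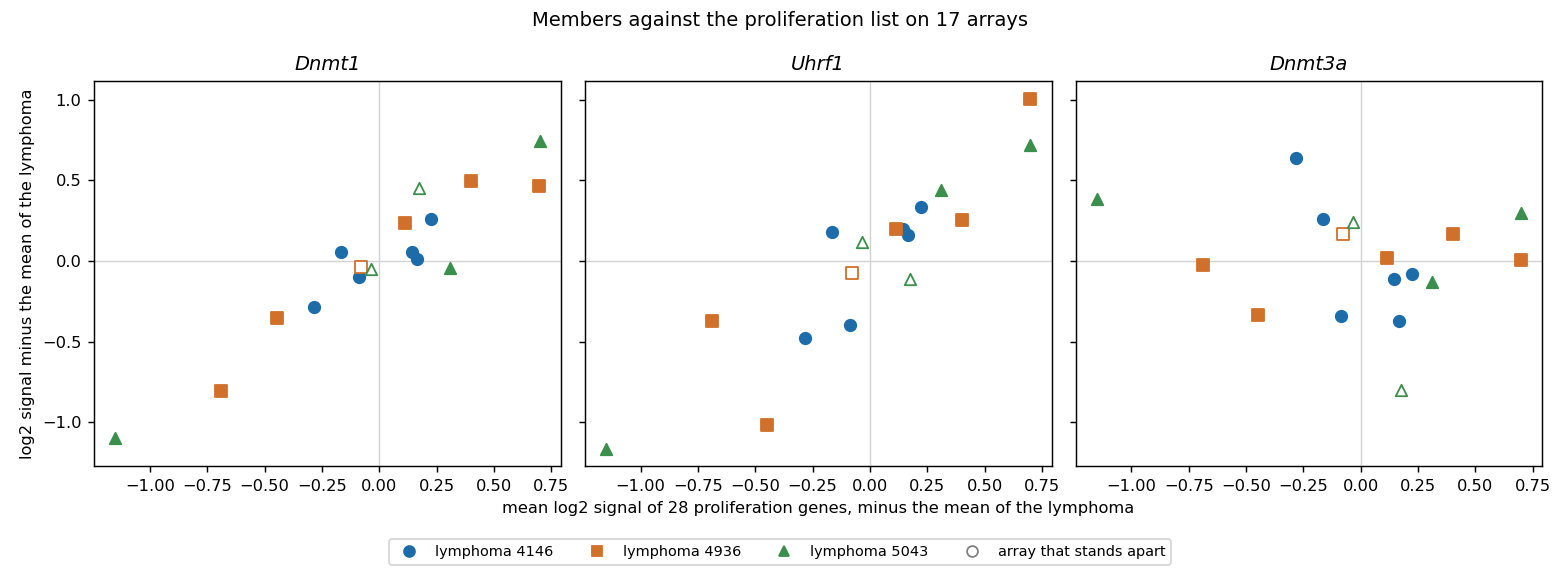
Log2 signal of Dnmt1, Uhrf1 and Dnmt3a (vertical axes) against the mean of 28 proliferation genes (horizontal axis). Both are centred on the mean of the lymphoma. Each point is 1 of 17 arrays, coloured by lymphoma, and the treatment group is not marked. Dnmt1 (r = 0.94) and Uhrf1 (r = 0.90) lie along a line, and Dnmt3a (r = −0.19) shows none. The lowest proliferation means are those of ADR+OHT of 5043 and 4936, while ADR+OHT of 4146 does not lie at the lower end.

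The genes whose pattern was most like that of these 2 were picked by the highest r over the same arrays. They are a description and no separate support. For Dnmt1 they were Sgo1 (r = 0.96), which guards chromosome cohesion, the Fanconi repair gene Fanci (0.96) and the cohesin subunit Smc1a (0.96), with 0.98, 0.98 and 0.96 over 13 arrays. For Uhrf1 they were Mcm3 (0.97) and Orc6 (0.95), which license replication origins, and the clamp loader subunit Rfc5 (0.94), with 0.98, 0.97 and 0.97. Dnmt1 and Uhrf1 correlated with each other at 0.81, and at 0.85 over 13 arrays.

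Genes around the maintenance step were given from a fixed list. Of 9 tested maintenance partners, all had lower means after ADR+OHT than untreated (median −0.75), and 2 fell, where 2.05% of all genes fell. Neither call remained without the untreated or the ADR+OHT array of lymphoma 4936 or of 5043. Lig1, the ligase that joins replicated fragments and binds Uhrf1, was 10.93, 11.13 and 11.13 untreated and 10.07, 9.57 and 8.65 after ADR+OHT, a fall in every lymphoma (−1.63, SE 0.34, adjusted p 0.0308). Pclaf, a partner of the replication clamp whose ubiquitylation by Uhrf1 brings Dnmt1 to DNA, was 12.47, 12.39 and 12.72 untreated and 11.88, 11.21 and 10.80 after ADR+OHT (−1.23, adjusted p 0.0467). ADR alone left this list near untreated, with a median of −0.05 and 6 of 9 genes lower, and ADR+OHT minus ADR had a median of −0.80 with 9 of 9 lower and 0 calls. In big cells the list was about as low, with a median of −0.69 from untreated and 9 of 9 lower, and without a call.

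Uhrf2 was high on the arrays that stand apart. On ADR of 4936 and on small and big of 5043 it measured 10.35, 10.42 and 10.50, and on the other 14 arrays it ran from 8.52 to 9.35 with a median of 9.01. It was the only member for which these 3 arrays lay outside all others; 490 of all genes (4.12%) had all 3 above every other array and 319 (2.68%) below. By group it was 9.01, 9.33 and 8.95 untreated, 8.84, 10.35 and 8.85 after ADR, 9.27, 8.79 and 9.03 after ADR+OHT, and 9.05 and 8.52 in the ADR outgrowth. Big cells gave 9.35, 8.89 and 10.50 and small cells 9.01, 9.18 and 10.42. Every group overlapped with untreated; ADR minus untreated was 0.25 (SE 0.49, adjusted p 0.854) and became −0.40 without the ADR array of 4936. The genes most like Uhrf2, Foxa3 (r = 0.96), Myo6 (0.96) and Cblb (0.95), correlated with it at 0.73, 0.69 and 0.59 over the 13 arrays without the doubtful ones.

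Dnmt3a, a de novo methyltransferase, differed little between groups at 5 days, and its representative probe set was higher in big than in small cells. It was 8.09, 8.24 and 8.13 untreated, 8.06, 8.23 and 7.70 after ADR, and 8.43, 8.04 and 8.22 after ADR+OHT; these groups overlapped, and ADR+OHT minus untreated was 0.08 (adjusted p 0.903). In the outgrowths it was 7.80 and 8.07 after ADR, 8.81, 8.08 and 8.08 in big cells and 7.83, 7.73 and 7.03 in small cells. Every small value lay under every big and every untreated value, the latter as for 9.2% of all genes. Big minus small was 0.79 (SE 0.21, 95% confidence interval 0.33 to 1.26, adjusted p 0.196), with 0.98, 0.35 and 1.05 by lymphoma. The difference of small cells from ADR+OHT was −0.70 (adjusted p 0.0787, with 17.1% of all genes lower without overlap), and from untreated −0.62 (adjusted p 0.550). Without the 3 arrays that stand apart, 2 of which are the big and small arrays of 5043, these 3 differences were 0.67, −0.48 and −0.40.

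The other probe sets of Dnmt3a did not give the same separation of big from small cells. The 4 others gave −0.16, 0.24, 0.05 and 0.16, and correlated with the first at r = 0.33, 0.69, 0.35 and 0.43 over the arrays. For small minus ADR+OHT they gave −0.81, −0.80, −0.52 and −0.13, all in the direction of the first. Which transcripts each set detects was not examined here. Over all probe sets, the lower level of small cells against ADR+OHT thus had 1 direction, and the contrast of big with small did not. The genes most like Dnmt3a were less alike than those of the maintenance genes: Ikbke (r = 0.78), Aipl1 (0.76) and the H3K79 methyltransferase Dot1l (0.74).

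**Figure D4:**
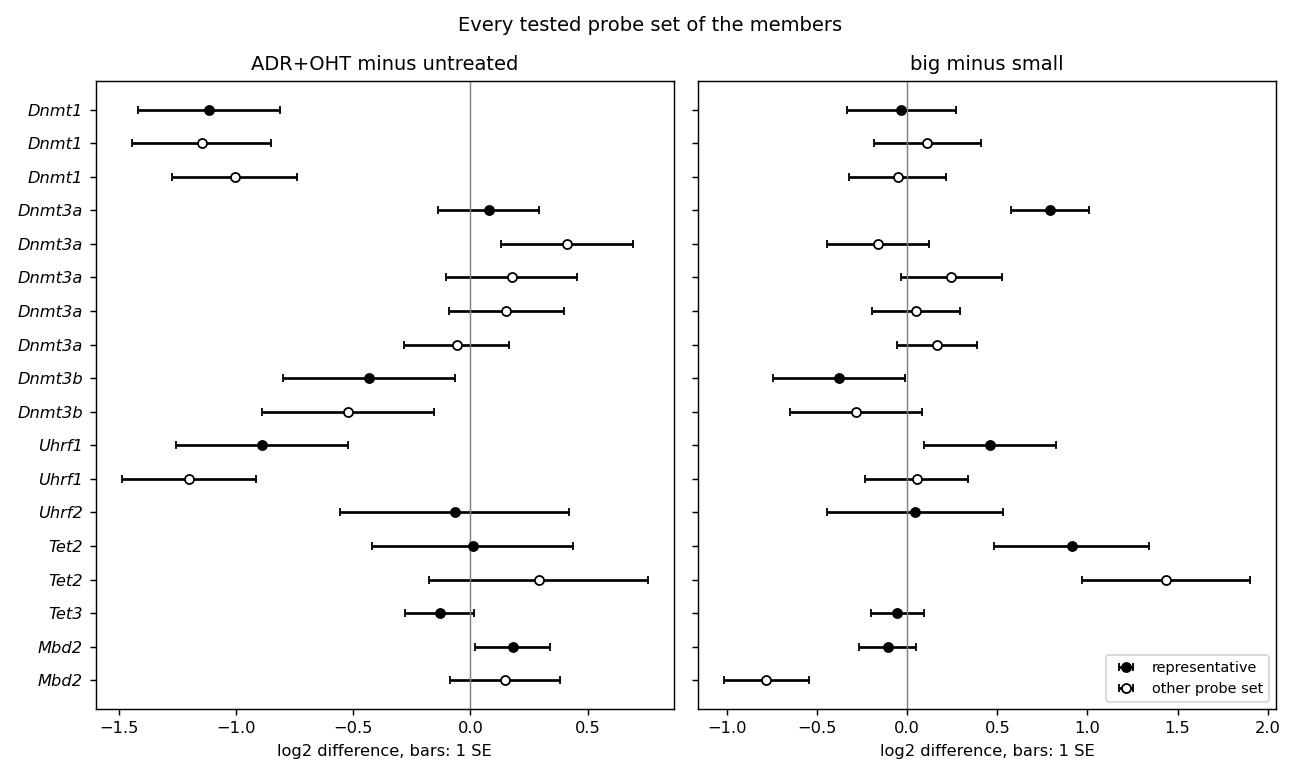
Log2 difference (horizontal axis) of each of the 18 tested probe sets of the members, for ADR+OHT minus untreated and for big minus small, with bars of 1 SE; filled symbols mark the set that represents the gene. The 3 Dnmt1 sets lie together at −1.15 to −1.01 for ADR+OHT minus untreated, whereas for big minus small the Dnmt3a sets spread from −0.16 to 0.79.

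Dnmt3b, the other de novo enzyme, did not differ from untreated in 1 direction over the lymphomas at 5 days. It was 7.92, 6.98 and 7.60 untreated, 8.06, 6.83 and 7.21 after ADR, and 7.09, 7.32 and 6.79 after ADR+OHT. The outgrowth arrays gave 7.22 and 8.37 after ADR, 7.20, 7.10 and 6.61 in big cells and 7.16, 7.59 and 7.30 in small cells. High and low values occurred in every group at 5 days: ADR+OHT minus untreated was −0.83, 0.34 and −0.81 by lymphoma, a mean of −0.43 (SE 0.37, adjusted p 0.586). The lowest group mean was that of big cells, −0.53 from untreated (adjusted p 0.484). Both ADR outgrowth values lay above all big ones, but the share of all genes that did so is not given here. The second probe set followed it (r = 0.94) and gave −0.52 for ADR+OHT minus untreated. The most alike genes were Dipk2a (r = 0.87), Nucks1 (0.84) and Naa50 (0.84).

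Among the oxidising enzymes, Tet1 had 4 probe sets, with means of 2.90 to 3.69. The representative set ran from 3.25 to 4.07 over the 17 arrays, under 4.86 on each, and the other sets correlated with it at r = 0.29, −0.16 and −0.06. Such values give no order of groups. Tet3 was low and flat: it was 5.49, 5.28 and 5.53 untreated, and all 17 arrays lay between 5.12 and 5.58. Its differences over the comparisons ran from −0.23 to 0.15, with SE of 0.14 to 0.22, and the confidence interval of ADR+OHT minus untreated was −0.44 to 0.18. Its nearest genes were Oas1f (r = 0.82), Sipa1 (0.79) and Irf3 (0.76).

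Tet2, the oxidising enzyme often lost in blood cancers, was highest in big cells. It was 8.94, 9.40 and 8.42 untreated, 8.44, 8.86 and 8.07 after ADR, and 8.92, 8.94 and 8.93 after ADR+OHT. In big cells it was 9.87, 9.95 and 9.55, and in small cells 8.57, 8.92 and 9.14. Every big value exceeded every untreated, ADR+OHT and small value. The ADR outgrowth, at 10.13 in lymphoma 4146 and 7.99 in 4936, held both the highest and the lowest of all arrays. Big minus small was 0.91 (SE 0.43, 95% confidence interval −0.03 to 1.86, adjusted p 0.492), with 1.30, 1.03 and 0.40 by lymphoma. Big minus untreated was 0.87 (adjusted p 0.337) and big minus ADR+OHT 0.86 (adjusted p 0.253); 13.1% and 16% of all genes were higher without overlap in these comparisons. Without the 3 arrays that stand apart, big minus small, untreated and ADR+OHT were 1.17, 0.88 and 0.87.

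The 3 Tet2 contrasts with big cells had the same direction in each lymphoma and did not pass the test. Its second probe set (r = 0.91) gave 1.44 for big minus small (SE 0.47, adjusted p 0.227) and 1.17 for big minus untreated. Leaving out the ADR outgrowth of 4146 gave big minus ADR+OHT an adjusted p of 0.0487 at the same difference of 0.86, and big minus ADR outgrowth a difference of 2.02 (adjusted p 0.0164); leaving out that of 4936 gave 0.86 (adjusted p 0.0487) and −0.39. At 5 days ADR was −0.46 from untreated (adjusted p 0.675; −0.67 without the 3 arrays that stand apart) and lower in all 3 lymphomas. ADR+OHT minus ADR was 0.47 (adjusted p 0.680; 0.68 without them) without overlap, as for 9.01% of all genes that were higher. The genes most like Tet2 were Mindy2 (r = 0.91), Tcf25 (0.89) and the transcription factor Nfil3 (0.89).

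Dnmt3a and Tet2 were the only members without overlap between big and small cells, 2 of 8 higher, against 8.99% of all genes higher and 12.8% lower. Fibroblast markers differed between the same groups. Of 16 listed, 8 were tested, and all 8 were higher in big than in small cells, with a median of 3.14. In big against untreated cells 5 of them rose (0.286% of all genes rose), among them the matrix genes Bgn (5.61), Fn1 (5.55) and Col1a2 (4.70). Without the untreated array of 4146 or of 4936 none passed. Macrophage markers were higher in big than small cells for 11 of 11 tested (median 1.18). The part of other cells in the Dnmt3a and Tet2 values was not tested.

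**Figure D5:**
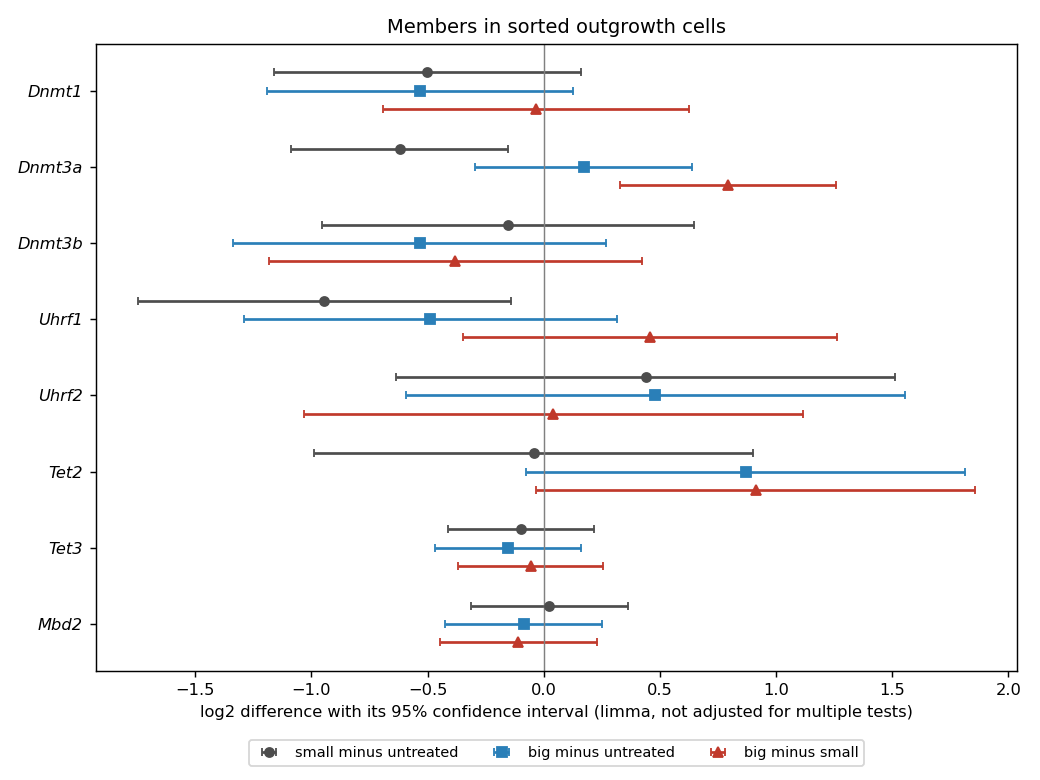
Log2 difference (horizontal axis) of the 8 tested members for small minus untreated, big minus untreated and big minus small, with 95% confidence intervals from limma. For big minus small, Dnmt3a (0.79) and Tet2 (0.91) lie to the right of 0, and for small minus untreated Uhrf1 (−0.94) lies farthest to the left.

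Mbd2, the reader of methylated DNA, was highest after ADR. It was 9.93, 9.81 and 9.81 untreated, 10.30, 10.28 and 10.15 after ADR, and 9.85, 10.11 and 10.12 after ADR+OHT. The ADR values lay above all untreated and all ADR+OHT values, within a narrow range in each group. Between ADR and untreated the difference was 0.39 (SE 0.15, 95% confidence interval 0.06 to 0.73, adjusted p 0.389), with 0.37, 0.48 and 0.34 by lymphoma, and was 0.32 to 0.52 under every alternative tried. ADR+OHT minus ADR was −0.21 (adjusted p 0.588), with −0.45, −0.17 and −0.03 by lymphoma, and 13.5% of all genes were lower without overlap. The second Mbd2 probe set (r = 0.89) gave 0.65 for ADR minus untreated (adjusted p 0.370).

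Mbd2 and Dnmt1 were the tested members without overlap between ADR and untreated, 1 higher and 1 lower, against 11.8% of all genes higher and 10.4% lower. The Actb control signal near the 3′ end exceeded that near the 5′ end, a gap that widens as RNA degrades. It did so by 0.563 to 1.17 on the ADR arrays and 1.39 to 1.65 on untreated ones. Macrophage markers were higher after ADR for all 11 tested of 17 listed (median 2.17). The part of both in the Mbd2 value was not tested. In the outgrowths Mbd2 was 9.97 and 10.24 after ADR, 9.99, 9.52 and 9.78 in big cells and 9.95, 9.71 and 9.96 in small cells. Big cells overlapped with both other groups. All small values lay under the ADR outgrowth values, the closest at 9.960 against 9.967, as for 17.2% of all genes. Small minus ADR outgrowth was −0.24 (adjusted p 0.569). The genes nearest to Mbd2 were Ubxn8 (r = 0.94), Otud6b (0.89) and Btk (0.87), the kinase of B-cell receptor signalling. Of all pairs of members, the most inverse over the 17 arrays were Dnmt3b with Tet2 (r = −0.62 over 17 arrays and −0.73 over 13), Tet2 with Mbd2 (−0.57 and −0.60) and Dnmt3b with Uhrf2 (−0.52 and −0.65). The ADR outgrowth of 4936, which is among the 13, held the highest Dnmt3b value (8.37) and the lowest of Tet2 (7.99) and Uhrf2 (8.52).

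The wider network of the members was followed in 7 fixed lists with 99 genes, 81 of them tested. Between ADR+OHT and untreated, 5 of the 81 fell (6.17%, against 2.94% of all genes called) and none rose, with a median difference of −0.20. Besides Lig1 and Pclaf they were Shmt2, Mthfd2 and Dcaf1. Shmt2 and Mthfd2 are mitochondrial enzymes of folate metabolism, which feeds the methyl donor cycle. Shmt2 went from 10.81, 10.49 and 10.51 to 9.43, 9.40 and 9.59 (−1.13, SE 0.20, adjusted p 0.0209). Mthfd2 went from 11.11, 10.79 and 10.58 to 10.06, 9.67 and 9.86 (−0.96, SE 0.19, adjusted p 0.0279). Both were about equally low in all 3 lymphomas, unlike Dnmt1. Dcaf1, the substrate adaptor of the ubiquitin ligase that modifies Tet proteins, went from 9.32, 9.60 and 9.51 to 8.79, 8.69 and 8.60 (−0.78, SE 0.15, adjusted p 0.0245). These counts were sensitive to single arrays: 12 of the 81 fell without the ADR+OHT array of 4146, and 0 without the untreated or the ADR+OHT array of 4936 or of 5043, where 14 to 26 of all genes passed.

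The lists of de novo cofactors, readers, NuRD subunits and repair genes held no call for ADR+OHT minus untreated. The cofactors of de novo methylation had a median of −0.25 over 6 genes, with Nsd2 at −0.80 and Nsd1 at −0.66, both of which methylate H3K36. The readers had a median of 0.36 over 10, with the mismatch glycosylase Mbd4 at −1.19 (adjusted p 0.0567) and Zbtb4 at 1.14. For NuRD subunits it was −0.08 over 12, with Rbbp4 at −0.54 and Mta3 at −0.51, and for the repair of modified cytosine −0.22 over 19, with the glycosylases Neil3 at −1.46 and Ung at −0.89. The lists that held Dcaf1, and Shmt2 with Mthfd2, had medians of −0.14 over 10 oxidation partners and −0.23 over 15 genes of the methyl donor cycle.

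After the drugs were removed, few partner genes passed. Between small cells and ADR+OHT, 4 of 81 passed (4.94%, near the 5.04% of all genes, of which 2.66% rose and 2.39% fell): Dcaf1 (0.68, adjusted p 0.0273) and Sinhcaf (0.67, adjusted p 0.0478) rose, and the methyl-CpG reader Mbd1 (−0.79, adjusted p 0.0114) and its domain relative Mbd6 (−0.81, adjusted p 0.0351) fell. Without the 3 arrays that stand apart, of these Mbd6 alone passed. Between big cells and ADR+OHT, the CpG-binding demethylase Kdm2a fell (−0.77, adjusted p 0.0322), 1 of 81 or 1.23%, where 2.02% of all genes fell, and without those 3 arrays none passed. Leaving out 1 small array of 4146 or 5043, or the ADR+OHT array of 4936, also left 0 of the partner calls between small cells and ADR+OHT. In the other 10 comparisons 0 of 81 partners passed in limma. Between big and untreated cells Pcna, the replication clamp, was at −1.06 (adjusted p 0.0952), while the stress genes Gadd45a and Gadd45g were at 2.62 (adjusted p 0.104) and 2.21 (adjusted p 0.0861). For big minus small, Gadd45b stood at 1.29 and Smug1 at −0.70, neither passing.

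Whether the step from treatment to outgrowth differed with 4-OHT was tested as a difference of differences: small minus ADR outgrowth, less ADR+OHT minus ADR. Small cells are a sorted fraction and the ADR outgrowth was not split, so 4-OHT and sorting cannot be told apart in this contrast. Big cells were not part of it. For the 8 members it ran from −0.57 for Tet2 to 0.95 for Uhrf2, and adjusted p ran from 0.619 to 0.983, so no difference was detected for any of them. The SE of this contrast was 0.22 for Tet3 and 0.74 for Uhrf2, so that for Uhrf2 only large differences could have been seen. The Uhrf2 value includes 2 of the arrays that stand apart, ADR of 4936 and small of 5043, and without the 3 it was 0.084. The Tet2 value was then −0.99 (adjusted p 0.651).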

How the data were processed

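Total RNA of 18 cultures was labelled by the One-Cycle protocol and hybridised to Affymetrix mouse arrays, per the labels' protocols. The authors deposited log2 signals made with RMA, with Partek also named, per the submitters' processing notes; versions and order are not given in the sources used here. Every probe set had the same median in each lymphoma (tolerance 1e-06), so lymphoma offsets had been removed. Precision is limited by the number of arrays.

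The platform annotation gave 34958 probe sets 1 symbol and 932 several, which were left out; 9211 were not named. The tests used limma 3.58.1 in R 4.3.3, with 6 groups and an additive block for lymphoma (9 residual and 2.53 prior degrees of freedom), over 11897 genes and 13 comparisons. The lymphoma number pairs the arrays, since the labels state that each lymphoma received both treatments; removed offsets prevent a check on the values. The lymphomas are the replicates.

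Members, lists and most alternatives were chosen with earlier results of these data known. All 9 members are named. From each partner list up to 3 passing genes are given, by smallest adjusted p, or else the 2 with the largest difference; and per member the 3 genes with the highest r. Xist and other values used to judge arrays were chosen after being seen. The fit was tested on simulated data.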

Additional observations from a re-analysis of the deposited data

How the results depend on the processing

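Counts of called members were recomputed under 33 alternatives for the block, filter, probe sets, scaling, variance and arrays (32 for Tet3). For ADR+OHT minus untreated, 0 members became 1 with no replicate block (Dnmt1, −1.12, adjusted p 0.0398) and without the 3 arrays and ADR+OHT of 4146 (1, Dnmt1 −1.52, adjusted p 0.00988), and 2 with array weights (Dnmt1 −1.40, adjusted p 0.00316, and Uhrf1 −1.13, adjusted p 0.0254) or with weights estimated gene by gene (2, Dnmt1 −1.40 and Uhrf1 −1.20). The gene-by-gene weights were added after seeing the data, because the default estimate stopped before converging. Leaving out single arrays or lymphomas gave 0 to 1, and over all settings Dnmt1 ran from −1.57 to −0.75. For ADR+OHT minus ADR both weightings gave 1 (Dnmt1, −0.94 and −0.96), and for big minus small the default weights gave 1 (Dnmt3a, 0.82, adjusted p 0.0456). Over the 7 further comparisons both weightings gave 3, among them Tet2 in big minus untreated (1.03 and 1.02), and leaving out arrays gave 0 to 2. Counts for ADR minus untreated, small minus ADR outgrowth and the difference of differences were 0 under every alternative. Without the block no other member was called.

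Single differences larger than their SE reversed in 10 cases. Dnmt3a in big minus ADR outgrowth was −0.071 with the mean over probe sets. The others came from leaving out an array or lymphoma: Uhrf1 in big minus ADR+OHT ran from −0.093 to 0.93 (below 0 without 5043 or its ADR+OHT array), Uhrf1 in ADR outgrowth minus ADR from −0.14 to 0.94 and Tet2 in big minus ADR outgrowth from −0.39 to 2.02 (both below 0 without 4936 or its outgrowth array), Tet2 in ADR outgrowth minus ADR from −0.69 to 1.81 (below 0 without 4146 or its outgrowth array), and Mbd2 in small minus ADR outgrowth from −0.45 to 0.011 (above 0 without 4936). The cause was not tested. Of the other values, 3388 kept their direction or lay within their SE on the same side of the threshold, and 21 passed it newly. With 3 arrays a group, signals near 4.86 (Tet1, Tet3) limit what can be seen.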
